A study of Mus musculus with 2 samples.

Results

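The calcium-regulated transcription factors and coactivators described here are 9 genes out of 43346 in the gene tables: Mef2a, Mef2c, Mef2d, Srf, Creb1, Crtc1, Crebbp, Ep300 and Nfatc3. The rule that picks them uses names and no measured value, and all 9 were found by gene identifier. RNA was sequenced from 2 pools of 50 pyramidal neurons each, the excitatory projection neurons of the cortex, taken from layer V by laser capture. The pools came from wild-type adult male mice aged 8 months, and libraries were made from RNA longer than 200 nt by a Smart-seq type protocol with ERCC spike-in RNAs. The strain is labelled B6NCrl in one field and C57Bl5 or C57Bl6 in others, and an antibody field reads Control. The libraries are labelled biological replicates 1 and 2 of 1 group, with no treatment or second condition. Since both name the same donor, they may come from a single animal, and their spread may then hold no difference between animals. No test between conditions exists in this design. Levels are therefore given per library with their SD, and differences between the libraries with the counting interval of their reads.

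Activity-dependent transcription in neurons starts with calcium entry. Calcium-activated kinases phosphorylate the factor CREB, which then recruits the acetyltransferases CBP (gene Crebbp) and p300 (gene Ep300), while the phosphatase calcineurin sends the CREB coactivator CRTC1 and the factor NFAT into the nucleus. MEF2 factors and SRF bind DNA through a shared MADS domain. MEF2 factors are held inactive by class IIa histone deacetylases until calcium signals export these from the nucleus, and SRF works with cofactors of the MRTF and ELK families. All act on activity-induced genes such as Fos, Egr1 and Bdnf, and most are controlled after translation, so that RNA levels do not measure their activity.

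Replicate 1 held 24171434 estimated reads and replicate 2 held 27946180, with 14057 and 13690 genes at a TPM of 1 or more (a level corrected for transcript length and scaled to a fixed sum per library). Of the defining markers of neurons, all 7 pan-neuronal, all 6 glutamatergic and all 9 layer 5 genes examined reached 1 TPM in both libraries. Markers of other cells were present as well. The 8 GABAergic interneuron markers summed to 3879 TPM in replicate 1, against 1499 TPM in replicate 2, with 7 of 8 at 1 TPM or more in both. Of these sums Sst alone made up 2506 and 844 TPM, and Vip stood at 153 and 0.03 TPM. By CPM (scaled read counts), Lhx6 was lower in replicate 1 (log2 ratio -0.13) and the other interneuron markers were higher there. The 8 microglial markers, 7 of them at 1 TPM or more in both, summed to 149 and 57.9 TPM. The 9 layer 5 markers summed to 2379 and 4893 TPM, of which Pcp4 alone made up 2134 and 4468 TPM. By CPM, 7 of the 9 were lower in replicate 1, and Crym (log2 ratio 0.31) and Bcl11b (0.27) were higher there. Summed levels in replicates 1 and 2 were 533 and 625 TPM for 7 astrocyte markers, 487 and 621 TPM for 6 oligodendrocyte markers, and 106 and 93.0 TPM for 5 endothelial markers, of which 4 reached 1 TPM in both. No list had a marker without reads in both libraries. In pools, fewer cells of a type and less RNA per cell cannot be told apart, and the part of these other cells in the differences between the libraries given below was not tested.

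The 9 genes covered a wide range of RNA levels, from Mef2c among the most abundant coding genes to Nfatc3 at the limit of detection. By mean TPM the order was Mef2c, Mef2a, Crebbp, Creb1, Mef2d, Crtc1, Ep300, Srf and Nfatc3. The median of the 9 was 11 TPM in replicate 1, against 13.4 TPM in replicate 2. Over all protein-coding genes detected at 1 TPM or more it was 11.9 TPM among 11974 genes in replicate 1 and 12.4 TPM among 11691 genes in replicate 2, so 4 and 5 of the 9 lay above it. In each library 8 of 9 reached 1 TPM. Their levels summed to 262 TPM in replicate 1, against 272 TPM in replicate 2, of which Mef2c alone made up 58.8% and 65.8%.

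**Figure D1:**
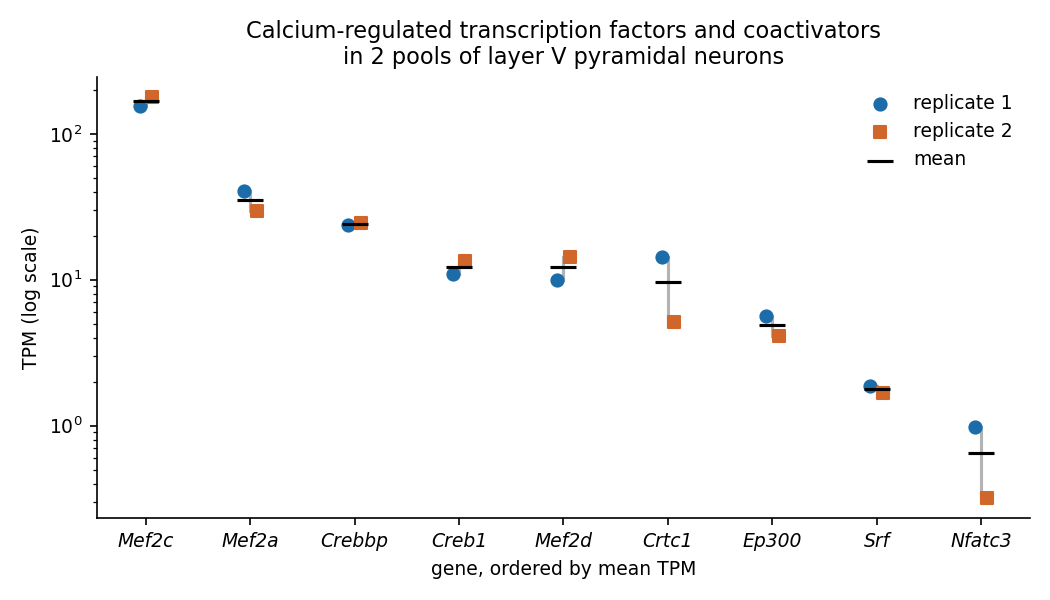
TPM (log scale) of the 9 genes in replicate 1 (circles) and replicate 2 (squares), with the mean as a bar, ordered by mean TPM. Mef2c stands highest in both libraries, and Crtc1 and Nfatc3 have the widest gaps between the libraries on this scale.

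Mef2c encodes the MEF2 factor needed for the development of cortical neurons and for the control of their synapse number. The gene (ENSMUSG00000005583.12, chr13:83504034-83667080, plus strand, GRCm38/mm10) stood at 154 TPM in replicate 1, against 179 TPM in replicate 2, a mean of 167 ± 17.7 TPM (SD, n = 2). It ranked 830th of 11974 and 730th of 11691 detected coding genes, above 93.1% and 93.8% of them. Behind these levels were 15222 estimated reads in replicate 1 and 19782 in replicate 2. The CPM (read counts scaled by TMM-adjusted library size) in replicate 1 was 0.8602 times that in replicate 2, with a 95% counting interval of 0.842 to 0.879. This interval, like those below, is an exact binomial one and covers counting error only, since the reads carry no molecular identifiers.

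Mef2a encodes a second MEF2 factor, also abundant in striated muscle. Its gene (ENSMUSG00000030557.12, chr7:67231163-67372858, minus strand) stood at 40.8 TPM in replicate 1, against 29.6 TPM in replicate 2 (35.2 ± 7.88 TPM, SD, n = 2). It was the second most abundant of the 9 in both libraries. The CPM ratio of replicate 1 to replicate 2 was 1.42, with a counting interval of 1.35 to 1.49, a log2 ratio of 0.50. Lysmd4, annotated on the opposite strand, overlaps Mef2a and held 416 and 693 reads. The deposited posterior SD of the counts was 0 for both genes, so the authors' quantification left no read shared between them.

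Mef2d encodes the third of the MEF2 factors. Its gene (ENSMUSG00000001419.13, chr3:88142372-88172086, plus strand) was at 10.03 TPM in replicate 1, against 14.3 TPM in replicate 2 (12.2 ± 3.03 TPM, SD, n = 2), lower in replicate 1. The CPM ratio was 0.715, with a counting interval of 0.661 to 0.773. An antisense gene, 1700113A16Rik, overlaps exons of Mef2d and stood at 36.8 and 27.1 TPM. Its count and that of Mef2d had the same posterior SD in each library, 12.1 reads in replicate 1 and 13.6 reads in replicate 2. Equal SDs are what reads shared between the pair give, and the level of Mef2d is uncertain in so far as the use of strand is not given in the sources used here. That SD is small beside the 1042 and 1630 reads assigned to Mef2d. It scores only how uniquely reads were assigned and does not measure an error from the use of strand.

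Within the MEF2 family, Mef2c held 75.2% of the summed TPM in replicate 1 and 80.2% in replicate 2 (77.7 ± 3.52%, SD, n = 2). Mef2a held 19.9% and 13.3%, and Mef2d 4.89% and 6.41%. Mef2b, the fourth family gene, had 0 reads in replicate 1 and 7 in replicate 2, where a count of 0 allows up to 3 reads. The order Mef2c, Mef2a, Mef2d held in both libraries. Mef2c was 3.78-fold above Mef2a in replicate 1 and 6.05-fold in replicate 2 by TPM, a log2 difference of 2.26 ± 0.48 (SD, n = 2). Against Mef2d the gap was 15.4-fold and 12.5-fold, a log2 difference of 3.79 ± 0.21.

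The MADS domain that binds DNA is nearly the same in the MEF2 proteins, so the first coding exons of the 3 genes are shown to tell how far reads can separate them. They run from the start codon over 54 bases, from GENCODE M21 transcripts on GRCm38/mm10, at chr7:67316792-67316845 (minus strand) for Mef2a, chr13:83575677-83575730 (plus strand) for Mef2c and chr3:88155809-88155862 (plus strand) for Mef2d. Capitals mark the 35 of 54 positions at which all 3 genes have the same base.
Mef2a: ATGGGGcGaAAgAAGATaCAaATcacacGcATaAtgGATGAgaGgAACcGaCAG
Mef2c: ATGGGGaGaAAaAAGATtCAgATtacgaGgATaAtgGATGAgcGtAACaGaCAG
Mef2d: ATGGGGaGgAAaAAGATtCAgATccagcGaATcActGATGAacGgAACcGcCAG
Over the first 258 coding bases, 81.0% of positions were identical between Mef2a and Mef2c, 77.5% between Mef2a and Mef2d and 83.7% between Mef2c and Mef2d. The longest run without a difference was 17, 11 and 28 bases for these pairs. The posterior SD of the Mef2a and Mef2c counts was 0 in both libraries, so the authors' quantification assigned their reads without sharing.

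MEF2 transcripts are also spliced in a tissue-dependent way, with a short acidic exon, known as the beta exon, that raises activation and is used in brain and striated muscle. A transcript table was used for replicate 1, so shares of transcripts below are from 1 library without a replicate. The exon is shown in capitals between 24 bases of the neighbouring exons for each gene, from the same GENCODE transcripts. It lies at chr7:67244521-67244544 (minus strand) in Mef2a, chr13:83654598-83654621 (plus strand) in Mef2c and chr3:88161781-88161801 (plus strand) in Mef2d.
Mef2a: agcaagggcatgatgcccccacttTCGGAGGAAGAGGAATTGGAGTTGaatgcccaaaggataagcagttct
Mef2c: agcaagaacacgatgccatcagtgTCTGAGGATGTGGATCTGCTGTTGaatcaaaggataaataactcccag
Mef2d: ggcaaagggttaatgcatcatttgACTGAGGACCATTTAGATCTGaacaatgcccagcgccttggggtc
The exon is 24 bases long in Mef2a and Mef2c and 21 bases in Mef2d, in each case a whole number of codons. The Mef2a and Mef2c exons share 17 of 24 bases. In replicate 1, transcripts with the exon held 82.7% of the TPM of Mef2a and those without it 10.4%. For Mef2c the split was 47.1% with and 52.9% without, and 32.3% of its reads were assigned to the transcript with the exon. That transcript, Mef2c-203, is the only one of the 3 quantified that carries the exon, against 8 in M21. The split is therefore one between whole transcripts and does not measure use of the exon alone. For Mef2d, the transcript with the exon, Mef2d-203, was listed at 0 and transcripts without it held 99.3%. The 3 genes thus differed in the share of TPM assigned to transcripts that carry the exon, with Mef2a highest and Mef2d at 0. The shares of Mef2a and Mef2d are also those of whole transcripts, which differ in length as well. Mef2a-208, with the exon, has 5538 bases and Mef2a-203, without it, has 2664. Mef2d-203 has 1791 bases and Mef2d-201, without the exon, has 5401. How far use of the exon alone differs between the 3 genes was therefore not measured.

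Among single transcripts, Mef2a-208 led with 82.7% of the gene's TPM, followed by Mef2a-203 with 10.4%. Mef2d-201 held 95.4% and Mef2d-204 3.86%. Mef2c had no dominant transcript, since Mef2c-202 held 48.3% and Mef2c-203 47.1%, from 9434 and 4917 reads. Mef2c-202 lacks the beta exon and, elsewhere, carries an extra segment of 60 bases at chr13:83625265-83625324, which neither Mef2c-201 nor Mef2c-203 has. In M21 it is the only transcript with this segment as an exon of its own. The same bases begin a coding exon of 144 bases (chr13:83625265-83625408) in 10 M21 transcripts, of which 0 were quantified. Reads of these bases could therefore be assigned to Mef2c-202 alone, so its share does not tell these exon forms apart. Only 3 Mef2c transcripts were quantified in the table, against 31 in GENCODE M21, and the table's lengths of these 3 differ from those in M21. The exon shares of Mef2c therefore rest on matching transcript identifiers between annotation releases.

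Srf encodes serum response factor, a MADS-box protein that binds the CArG box of immediate early genes. The gene (ENSMUSG00000015605.5, chr17:46548329-46556175, minus strand) was at 1.87 TPM in replicate 1, against 1.68 TPM in replicate 2 (1.78 ± 0.134 TPM, SD, n = 2), from 149 and 150 reads. Only 8.99% and 6.70% of detected coding genes were lower. The CPM ratio was 1.11, with a counting interval of 0.879 to 1.40 that includes 1, so no difference between the libraries was detectable at this depth. The 1 transcript of Srf in the table, Srf-201, is longer there than in M21.

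Creb1 encodes CREB, the factor that binds the cAMP response element. The gene (ENSMUSG00000025958.10, chr1:64532645-64604548, plus strand) was at 11 TPM in replicate 1, against 13.4 TPM in replicate 2 (12.2 ± 1.68 TPM, SD, n = 2), from 1244 and 1333 reads. These levels lie near the median of detected coding genes, above 48.0% and 51.8% of them. By CPM the ratio was 1.04, with a counting interval of 0.965 to 1.13, whereas by TPM replicate 1 was the lower, at a log2((TPM + 1)/(TPM + 1)) ratio of -0.26. The order of Creb1 and Mef2d by TPM turned between the libraries, with a log2 difference of 0.02 ± 0.16. Among the closely related genes that form dimers with CREB, Crem was 5.05-fold above Creb1 by TPM in replicate 1 and 4.91-fold in replicate 2. This is a log2 difference of 2.32 ± 0.03. By reads Crem was not above Creb1, with 1087 in replicate 1 and 1331 in replicate 2, against 1244 and 1333. The gap therefore depends on the correction for length, and the family shares carry the same dependence. Crem held 72.1% and 75.4% of the summed TPM of Creb1, Atf1 and Crem, Creb1 held 14.3% and 15.4%, and Atf1 held 13.6% and 9.20%.

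The alpha and delta forms of CREB differ by an exon of 42 bases, shown for its share in these neurons in capitals between 24 bases of the neighbouring exons (chr1:64559727-64559768, plus strand, GRCm38/mm10, GENCODE M21).
Creb1: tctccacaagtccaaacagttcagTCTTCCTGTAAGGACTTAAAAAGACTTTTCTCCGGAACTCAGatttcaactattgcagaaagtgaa
Transcripts without this exon, as in the delta form, held 67.2% of the TPM of Creb1 in replicate 1, and those with it, as in the alpha form, held 10.6%. The share with the exon rested on 27.2 reads assigned to Creb1-209 (posterior SD 6.64 reads), beside 1159 reads of Creb1-202, which lacks it. These are shares of whole transcripts of unlike length, 8364 bases for Creb1-202 and 1260 bases for Creb1-209. They do not measure use of the exon alone. Those without the exon also include Creb1-205 and Creb1-210, which are not annotated as protein-coding. Creb1-202 led with 63.7%, and a retained-intron transcript, Creb1-208, held 13.5%. Transcripts annotated as protein-coding held 74.4% of the TPM and 95.3% of the reads.

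Crtc1 encodes the CREB-regulated coactivator that moves from the synapse to the nucleus on activity. By TPM the gene (ENSMUSG00000003575.9, chr8:70382355-70439579, minus strand) stood at 14.2 in replicate 1 and 5.17 in replicate 2 (9.71 ± 6.41 TPM, SD, n = 2), which is 2.75-fold higher in replicate 1. By reads it was lower in replicate 1, with 446 reads against 591 in replicate 2. The CPM ratio was 0.844, with a counting interval of 0.744 to 0.956. The direction of the difference therefore depended on the unit, with a log2 ratio of 1.30 by TPM and -0.23 by CPM, each after adding 1. The effective length that turns reads into TPM was 1566 bases in replicate 1 and 5108 bases in replicate 2, a 3.26-fold gap. Of the 9190 genes with a mean CPM of 10 or more, Crtc1 was the 1 gene (0.0109%) whose effective length differed at least 3-fold, and 7.62% differed at least 1.2-fold.

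The effective length of a gene is an average over its transcripts, weighted by their estimated levels. In replicate 1, the coding transcript Crtc1-201 held 18.8% of the TPM, at 2.68 TPM, but 67.1% of the reads. The retained-intron transcript Crtc1-203 led with 34.5%, followed by the processed transcript Crtc1-205 with 25.6% and the retained-intron transcript Crtc1-202 with 20.3%. Noncoding transcripts thus held 81.2% of the TPM of Crtc1 in replicate 1, the largest such share among the 9 genes. In the CRTC family, Crtc1 held 71.6% of the summed TPM in replicate 1 and 48.3% in replicate 2, shares that carry the same dependence on length.

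**Figure D2:**
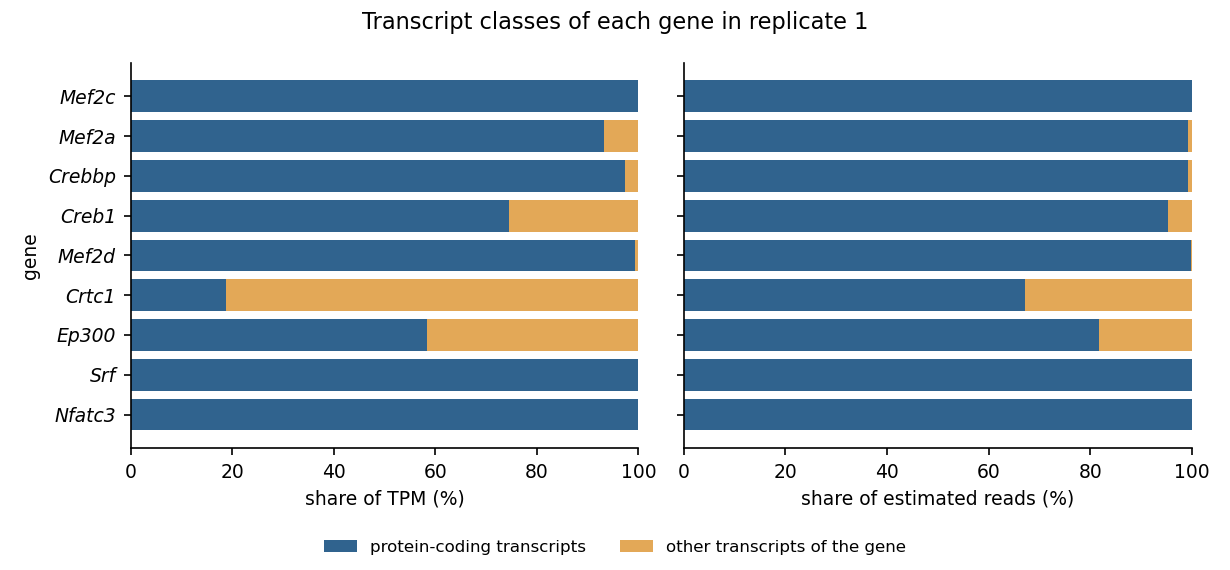
Share of TPM (left) and of estimated reads (right), in percent, held by protein-coding and by other transcripts of each gene in replicate 1. Crtc1 has the smallest coding share of TPM, 18.8%, while 67.1% of its reads were coding.

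Crebbp encodes CBP, the acetyltransferase that binds phosphorylated CREB. The gene (ENSMUSG00000022521.9, chr16:4081328-4213997, minus strand) was at 23.6 TPM in replicate 1, against 24.4 TPM in replicate 2 (24.01 ± 0.552 TPM, SD, n = 2), from 4700 and 5352 reads. Among the 9 genes its CPM ratio was the nearest to 1, at 0.982 with a counting interval of 0.944 to 1.02. A single transcript, Crebbp-201, held 97.4% of its TPM in replicate 1, and the retained-intron transcript Crebbp-202 held 2.58%.

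Ep300 encodes p300, the paralog of CBP. The gene (ENSMUSG00000055024.8, chr15:81585351-81652077, plus strand) was at 5.61 TPM in replicate 1, against 4.13 TPM in replicate 2 (4.87 ± 1.05 TPM, SD, n = 2). It had 695 reads in replicate 1 and 406 in replicate 2. The CPM ratio of 1.91, with a counting interval of 1.69 to 2.17, was larger than the TPM ratio of 1.36. Its effective length was 6190 bases in replicate 1 and 4393 bases in replicate 2, a 1.41-fold gap. Ep300-201, a coding transcript, held 58.5% of the TPM in replicate 1 and the processed transcript Ep300-202 held 28.3%. By TPM Crebbp exceeded Ep300 in both libraries, 4.21-fold in replicate 1 and 5.91-fold in replicate 2, a log2 difference of 2.32 ± 0.35 (SD, n = 2). It held 80.8% and 85.5% of their summed TPM. The order held by reads, with 4700 and 5352 for Crebbp against 695 and 406. It also held for coding transcripts in replicate 1, at 23.01 against 3.28 TPM. The size of the gap depends on the unit and the transcript class, which the SD does not cover.

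Nfatc3 encodes one of the calcineurin-dependent NFAT factors. The gene (ENSMUSG00000031902.9, chr8:106058840-106130537, plus strand) was at 0.98 TPM in replicate 1, against 0.32 TPM in replicate 2 (0.65 ± 0.467 TPM, SD, n = 2), the lowest of the 9 and below 1 TPM in each library. It had 116 reads in replicate 1 and 43 in replicate 2. The CPM ratio was 3.02, with a counting interval of 2.11 to 4.38, at a mean CPM of 3.30. Its reads in replicate 1 were all assigned to Nfatc3-201, the 1 transcript of the gene in the table. In the NFAT family, Nfat5, the member not controlled by calcineurin, held 77.1% and 63.5% of the summed TPM. Nfatc2 held 17.4% and 34.7%, and Nfatc3 held 5.34% and 1.78%. Nfatc1 had 3 reads in replicate 1 and 0 in replicate 2. Nfatc4 had 0 in both, and a count of 0 allows up to 3 reads per library.

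Neighbours in the order of levels were not all separated beyond their spread. Mef2c over Mef2a, Crebbp over Creb1 (log2 difference 0.98 ± 0.17), Ep300 over Srf (1.44 ± 0.20) and Srf over Nfatc3 (1.66 ± 1.03) kept their order in both libraries, as did Mef2a over Crebbp (0.53 ± 0.36) and Crtc1 over Ep300 (0.83 ± 0.72). With coding transcripts alone, in replicate 1, Crtc1 at 2.68 TPM lay below Ep300 at 3.28 TPM. The differences between Creb1 and Mef2d and between Mef2d and Crtc1 (0.48 ± 1.40) were smaller than their SD and changed sign between the libraries.

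Of the 9 genes, 7 had a mean CPM of 10 or more. On log2((CPM + 1)/(CPM + 1)), a scale that understates differences of low genes, 0 of these 7 lay beyond 2-fold between the libraries, where 4.46% of all 9190 genes at that level did (410 genes). With 7 genes a share near this background gives a count of 0, so nothing particular to them is read from it. Without the minimum, Nfatc3 was the 1 of 9 beyond 2-fold, with a log2 ratio of 1.17. The median size of the log2 ratio was 0.23 for the 7 genes and 0.26 for all 9190. By CPM, Mef2a, Srf, Creb1, Ep300 and Nfatc3 were higher in replicate 1 and the other 4 were lower. With library sizes set by spike-in totals, Mef2c, Crtc1 and Crebbp turned to higher in replicate 1, at log2 ratios of 0.15, 0.11 and 0.33, beside a median of 0.33 over all genes on that scale and -0.03 on the TMM scale. By TPM, 1 of the 7 lay beyond 2-fold, and that was Crtc1. Of the 369 genes beyond 2-fold by TPM, 2 had the opposite sign by CPM, which is 0.0218% of the 9190, and Crtc1 was 1 of these 2.

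**Figure D3:**
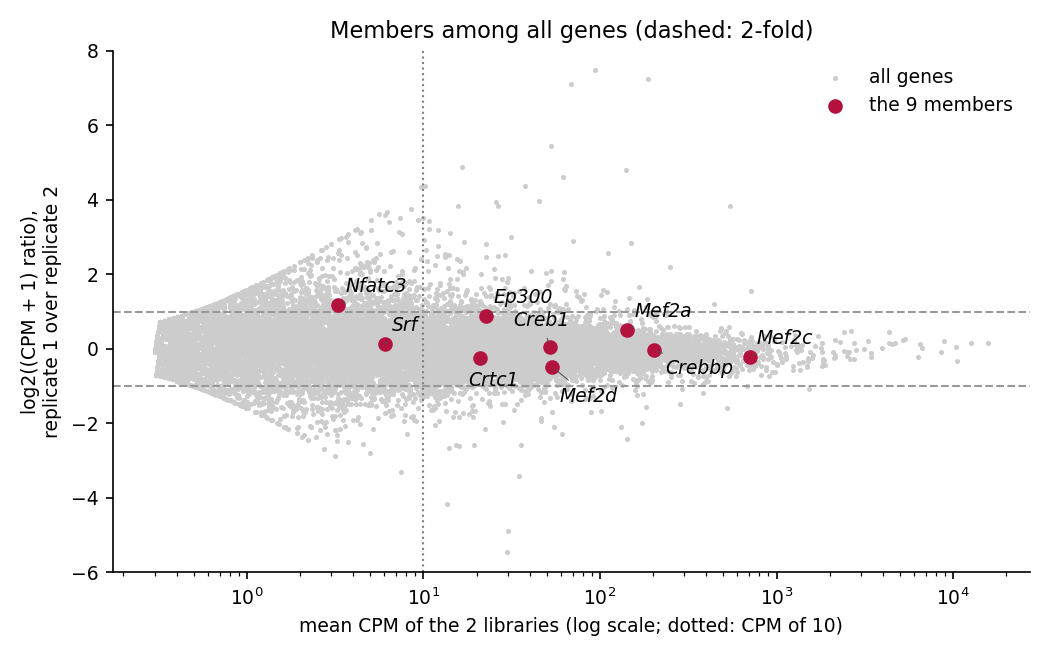
Log2((CPM + 1) ratio) of replicate 1 over replicate 2 against the mean CPM (log scale) for all genes (grey) and the 9 genes (red). Dashed lines mark 2-fold and the dotted line a mean CPM of 10, to the right of which none of the 9 genes lies beyond 2-fold.

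**Figure D4:**
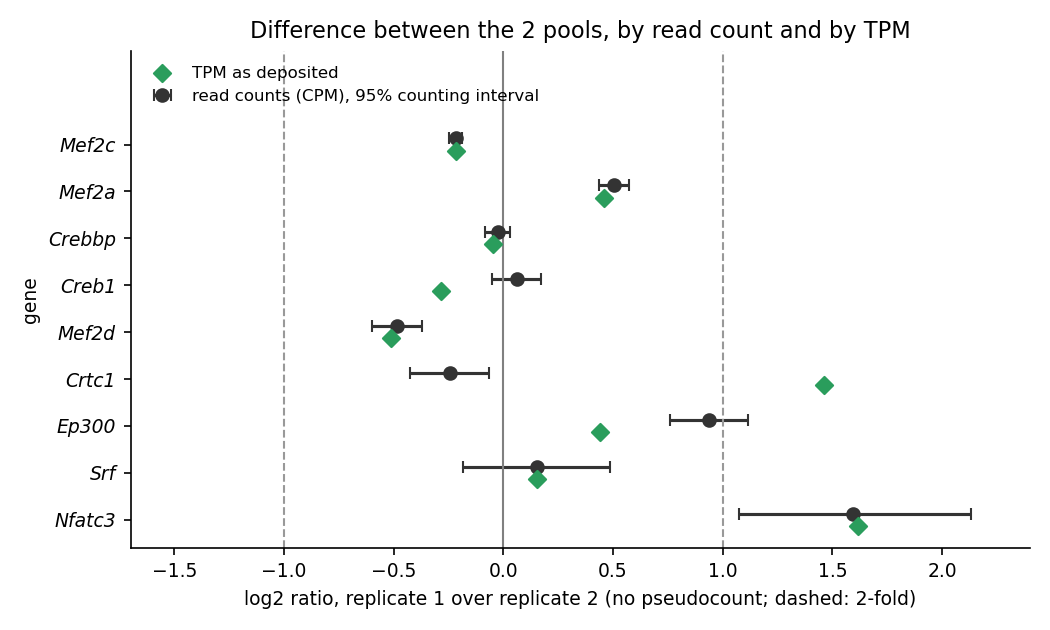
Log2 ratio of replicate 1 over replicate 2, without pseudocount, by read counts with 95% counting intervals (circles) and by deposited TPM (diamonds). Both units fall close together for Mef2c, Mef2a, Crebbp, Mef2d, Srf and Nfatc3, and lie on opposite sides of 0 for Crtc1 and Creb1.

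Around the 9 genes, 9 lists hold 82 genes of their families, cofactors, upstream enzymes and targets, of which 67 reached 1 TPM in both libraries. Of the 54 at a mean CPM of 10 or more, 5 lay beyond 2-fold (9.26%, against 4.46% of all genes): 3 higher and 2 lower in replicate 1. In the 8 MEF2 and CREB relatives, 6 reached 1 TPM in both, and the median was 34.3 TPM in replicate 1, against 38.7 TPM in replicate 2. The leading genes were Atf2 (84.9 and 73.5 TPM), Atf4 (65.6 and 79.2 TPM), an activator of the stress response, and Creb3 (63.1 and 65.6 TPM), a factor of the endoplasmic reticulum. All 3 exceeded Creb1 in both libraries. Crtc3 (3.29 and 2.46 TPM) and Crtc2 (2.36 and 3.08 TPM) were below Crtc1 in both. By reads they were below it too, with 215 and 224 for Crtc3 and 102 and 150 for Crtc2, against 446 and 591. The coding transcript of Crtc1 alone, at 2.68 TPM in replicate 1, lay below the gene level of Crtc3, so the order by TPM depends on transcript class.

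SRF cofactors were led by Mrtfb, an actin-regulated coactivator of SRF, at 47.8 TPM in replicate 1, against 43.1 TPM in replicate 2. Mrtfb lay 25.5-fold and 25.6-fold above Srf. Of the others, Elk4 stood at 6.56 and 8.62 TPM and Mrtfa at 5.25 and 5.09 TPM. The list's median was 3.76 and 3.48 TPM, with 4 of 6 genes at 1 TPM or more in both. All 4 class IIa histone deacetylases, the repressors of MEF2, were detected. By TPM Hdac5 led at 24.1 and 40.4, ahead of Hdac4 at 16.6 and 12.8 TPM and Hdac7 at 3.24 and 4.57 TPM. Hdac5 stood 2.405-fold and 2.82-fold above Mef2d by TPM. By reads Hdac4 led, with 1359 in replicate 1 and 1482 in replicate 2, against 440 and 802 for Hdac5. Mef2d, with 1042 and 1630 reads, also exceeded Hdac5, so both orders depend on the correction for length.

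Calcineurin was the most abundant group around the 9 genes by summed TPM. Its regulatory subunit gene Ppp3r1 was at 574 TPM in replicate 1, against 718 TPM in replicate 2, and the catalytic subunit genes Ppp3ca and Ppp3cb were at 508 and 515 TPM and at 113 and 120 TPM. Ppp3ca and Ppp3r1 exceeded Mef2c, and 7 of the 8 genes in the list reached 1 TPM in both. Among kinases of CREB and the deacetylases, all 21 reached 1 TPM in both, with a median of 19.2 TPM in replicate 1, against 17.1 TPM in replicate 2. Camk2b, a subunit of CaM kinase II, was at 118 and 115 TPM and Prkacb, a catalytic subunit of protein kinase A, at 84.1 and 125 TPM.

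The kinases that differed beyond 2-fold were of the CaM kinase family. Camk2d stood at 24.5 TPM in replicate 1, against 10.7 TPM in replicate 2, a log2 CPM ratio of 1.14. Camk4, the nuclear kinase that phosphorylates CREB, was lower in replicate 1, at 18.0 TPM against 38.0 TPM in replicate 2 (log2 ratio -1.08). Camk1g was lower there too, at 15.8 TPM against 35.6 TPM (log2 ratio -1.13). By mean TPM, kinases that hold CRTC or NFAT in the cytoplasm were led by Csnk1a1 (110 and 137), Gsk3b (101 and 103) and Sik2 (14.4 and 10.04). Sik2 rested on 188 and 284 reads, and Dyrk1a, outside the naming rule, held 1462 and 1145. The place of Sik2 therefore depends on the correction for length. So does its direction, at a log2 ratio of 0.48 by TPM and -0.39 by CPM. None of the 4 at a mean CPM of 10 or more lay beyond 2-fold.

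The median of the activity-induced targets was 5.37 TPM in replicate 1, against 4.04 TPM in replicate 2, with 15 of 21 at 1 TPM or more in both. Homer1, a postsynaptic scaffold gene, had the highest mean, at 81.3 and 76.7 TPM, and the factor Egr1 stood at 39.6 and 36.6 TPM. Between them by mean was the nuclear receptor gene Nr4a2, high in replicate 1 only. Nr4a2 was at 133 TPM in replicate 1 (8734 reads) and 0.89 TPM in replicate 2 (38 reads). Its CPM ratio of 257, with a counting interval of 187 to 363, was the widest among the 54 genes at a mean CPM of 10 or more. The neurotrophin gene Bdnf was also higher in replicate 1, at 26.8 TPM against 12.6 TPM (log2 ratio 1.07). These 2 were the only ones beyond 2-fold among the 11 targets at a mean CPM of 10 or more, whose median log2 ratio was 0.11. The gap of Nr4a2 was therefore not shared by the list. Whether it comes from activity or from the cells in each pool was not tested. The CREB target Arc stood at 9.80 and 6.22 TPM. Fos, which lies outside the naming rule and was chosen after its values were seen, stood at 7.34 and 5.41 TPM, and neither lay beyond 2-fold.

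**Figure D5:**
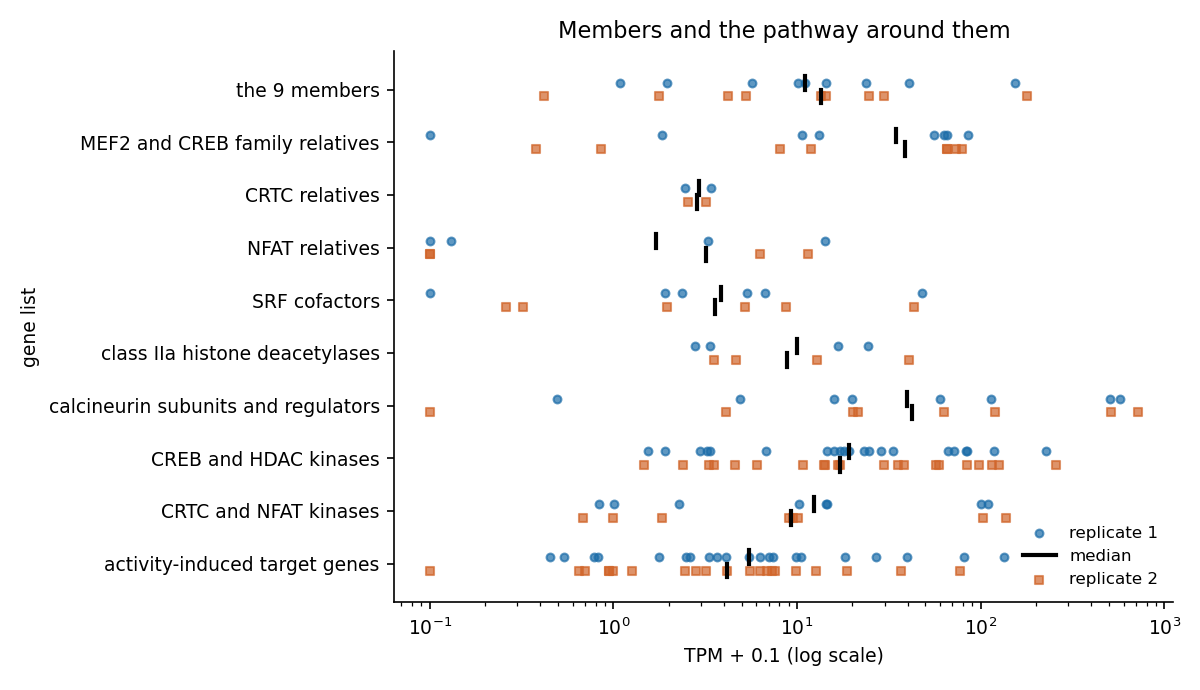
TPM + 0.1 (log scale) of each gene in replicate 1 (circles) and replicate 2 (squares) for the 9 genes and the 9 lists around them, with list medians as bars. Calcineurin genes reach the highest levels, and MEF2 and CREB relatives have a higher median than the 9 genes.

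Likeness to each of the 9 genes was measured as the Euclidean distance in log2(TPM + 1) over the 2 libraries, among the 82 genes of the lists. With 2 libraries this is little more than closeness in level. Nearest were Egr1 for Mef2a (0.30), Csnk1a1 for Mef2c (0.62), Crebl2 for Mef2d (0.43) and for Creb1 (0.28), Gsk3a for Srf (0.15), Arc for Crtc1 (0.55), Rcan1 for Crebbp (0.30), Rcan3 for Ep300 (0.19) and Sik1 for Nfatc3 (0.32). Second were Camkk2 for Mef2a (0.51) and Crebbp (0.37), Ppp3cb for Mef2c (0.73), Mapk14 for Mef2d (0.49) and Creb1 (0.37), Elk1 for Srf (0.21), Atf1 for Crtc1 (0.68), Rps6ka3 for Ep300 (0.24) and Fosb for Nfatc3 (0.37).

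Several of these factors are known to control their own genes, so their promoters were searched on both strands for the sites they bind. RefSeq promoters (GRCm38.p6, 300 bases around the start) were found for all 9 genes, 12 in all. The full cAMP response element, TGACGTCA, was in 0 of the 12, and in 1.79% of 32851 promoters. Its core, TGACG, which the full element contains, was in that of Srf and in 1 of 2 of Nfatc3, against 20.8% of all promoters. The CArG box, the site of SRF, was in the Srf promoter alone, at 2 places, against 1.63% of all promoters. The MEF2 site was in the Mef2a promoter alone, against 3.19%. These matches are shown in capitals, on the strand of the gene, with 11 bases on either side; the Srf windows overlap. Distances are those of the first base in capitals, and the Mef2a match runs on across the start.
Srf, 82 bases upstream of the start, chr17:46556224-46556255, minus strand: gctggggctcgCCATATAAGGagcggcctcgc
Srf, 62 bases upstream, chr17:46556204-46556235, minus strand: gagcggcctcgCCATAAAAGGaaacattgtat
Mef2a, from 2 bases upstream, chr7:67372840-67372871, minus strand: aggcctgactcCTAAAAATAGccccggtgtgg
A match describes the letters of these windows and does not show binding.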

How the data were processed

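RNA was measured in 2 libraries of 1 group. For each, the authors deposited expected counts (estimated reads per gene, not normalized), TPM and FPKM; both correct for effective length and depth, and the TPM sum includes spike-ins. The posterior SD of each count, a score of how uniquely reads were assigned, was used as deposited. In the transcript table of replicate 1, the deposited percent gives a transcript's share of its gene. The authors quantified on mm10 with GENCODE M4, as deposited text files state. No aligner, quantifier or strand setting is given in the sources used here. Overlapping genes may therefore share reads.

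Symbols came from GENCODE M21, with 42462 of 43346 identifiers matched; the rest held 0.194% and 0.179% of gene counts. Spike-ins (96; 4.28% and 5.32% of reads) and 26248 entries with numeric identifiers stayed out of library sizes. Counts were rounded and scaled by TMM (edgeR 4.0.16, R 4.3.3), with DESeq2 1.42.0 size factors as an alternative. Ratios are log2((CPM + 1)/(CPM + 1)) with 95% exact binomial intervals; floors are 3 reads, counting error only. No p-value was computed, since 1 group has no comparison. Other steps used Python 3.11.15, pandas 2.3.3, numpy 2.4.6 and scipy 1.17.1, and ratios and intervals were tested on simulated data.

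Named were all 9 genes, their leading 2 transcripts, the 3 genes of highest mean TPM in each pathway list, every pathway gene beyond 2-fold at mean CPM of 10 or more, and the 2 nearest genes. Family shares and marker sums also name others. A gene that this rule selects is not reported here. The genes and lists were chosen with earlier results of these data known. Protein comparison was not run; coding bases were compared instead. Alternatives were FPKM, other scalings, filters, pseudocounts, fold limits and transcript classes.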

Additional observations from a re-analysis of the deposited data

How the results depend on the processing

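No paired analysis was possible because there is 1 group. Of 45 alternatives for single ratios (5 for each gene), 42 stayed on their side of 2-fold. One turned round past that limit, Crtc1, at a log2 ratio of 1.30 by TPM against -0.23 by CPM, beside its change in effective length. Scaling by spike-in totals shifted all genes, whose median log2 ratio was 0.33 against -0.03. Below 2-fold, Mef2c, Crtc1 and Crebbp changed sign on that scale, as did Creb1 by TPM (-0.26 against 0.06) and Crebbp with total gene counts (0.01 against -0.03). Nfatc3 fell within 2-fold by TPM, at 0.58, on a scale where 1 is added to levels below 1. The count beyond 2-fold, 0 of 7, became 1 with spike-in totals (Ep300), by TPM (Crtc1), at mean CPM of 1 or without a minimum (Nfatc3), and at 1.5-fold (Ep300), with 7.22%, 4.02%, 10.4%, 8.26% and 16.9% of all genes beyond the limit. The median level of 12.2 TPM was 9.91 in FPKM, and from 11 to 13.4 TPM leaving out a replicate. Genes above the coding median were 7 in each replicate against all coding genes, and 2 and 1 in replicates 1 and 2 against genes at 10 TPM or more. Of 27 alternatives for single levels by unit, denominator or transcript class, 12 stayed within 1 SD and 15 did not. A change of unit or denominator rescales all genes of a library alike, so there the outcome follows from each gene's SD. Levels by transcript class are from replicate 1 and were set against the mean of both libraries. These counts therefore do not measure how stable the levels are. With coding transcripts alone, Crtc1 fell below Ep300 in replicate 1. Depth limits Srf and Nfatc3 most.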
